A study of Mus musculus with 29 samples.

Results

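A set of 7 genes that encode subunits of the GABA-A receptor were taken from the RNA-seq table of sorted mouse retinal neurons by their symbols, and are described here across all 15 RNA-seq libraries. They are the alpha subunits *Gabra2*, *Gabra3* and *Gabra4*, the beta subunits *Gabrb1* and *Gabrb2*, and the gamma subunits *Gabrg1* and *Gabrg3*, 7 of the 24062 genes in the table. Of these 7 genes, 6 passed the filter on low counts and were tested, and *Gabra4* did not pass. The rule takes the genes by name and uses no measured value, but the members were chosen with earlier results of these data known.

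The GABA-A receptor is a chloride channel built from subunits around a central pore, most often from alpha, beta and gamma subunits, and the subunits it holds set its place in the membrane, its kinetics and its drug sensitivity. GABA is released in the retina mainly by amacrine and horizontal cells, and the axon terminals of bipolar cells, the neurons that carry signals from photoreceptors to the inner retina, receive much of it. ON and OFF bipolar cells respond to light with opposite signs, and both carry GABA-A receptors beside GABA-C receptors, which are made of rho subunits and are not described here.

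The study compared bipolar cells with photoreceptors, and ON with OFF bipolar cells. RNA-seq was done in 5 sorted populations with 3 libraries each, and the chromatin assay ATAC-seq, which counts transposase insertions in open DNA, in 6 populations with 2 libraries each. All bipolar cells (pan-BC) were sorted for RNA from *Otx2*-GFP+/- mice, which have GFP at the endogenous *Otx2* locus, at postnatal day 44 to 47. ON bipolar cells (ON-BC) and OFF bipolar cells (OFF-BC) came from Otx2-GFP+/-; Grm6-YFP+/+ mice at postnatal day 42 to 48, in which the *Grm6* promoter drives YFP in ON cells, so that brightness parts the types, and OFF-BC were sorted a second time while ON-BC were sorted once. ATAC-seq pan-BC libraries are labelled Otx2-GFP+/-; Grm6-YFP+/+ at postnatal day 43 and 44, and the study's own tables disagree on the transgene. Rods carried Nrl-eGFP. The population called blue cones consisted of photoreceptors of Nrl-eGFP mice that lack *Nrl*, the factor rods need, so that cells which would be rods become cones with the short-wavelength opsin. Green cones, with Opn1mw-GFP, were measured by ATAC-seq. The photoreceptor libraries, all from postnatal day 56, had been published before by this laboratory and were analysed again, and therefore cell class, study and age cannot be told apart in any comparison of bipolar cells with photoreceptors, and ON against OFF identity cannot be told apart from the number of sorts. The paper also estimates that rod bipolar cells make up most of its ON population. ON against OFF thus cannot be told apart from rod bipolar against cone bipolar cells here.

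RNA-seq libraries held 12329548 to 26266746 reads on genes (median 15569580) and ATAC-seq libraries 4176776 to 12345845 reads in regions (median 6648830). Levels are given as normalised read counts, which the authors made by dividing the reads of each library by a size factor. The 8 bipolar markers summed to 133747 to 143433 in pan-BC, 26135 to 30470 in blue cones, where *Cabp5* made up most, and 499 to 1061 in rods. Photoreceptor RNA differed among the bipolar populations. The 6 rod markers summed to 18881 to 23311 in pan-BC, 17118 to 20885 in ON-BC and 902 to 1432 in OFF-BC. The 5 cone markers summed to 40362 to 66063 in pan-BC, to 3942 to 4587 in ON-BC and to 22201, 20234 and 89854 in OFF-BC. OFF-BC library 3 stood apart, with *Opn1sw*, the short-wavelength opsin, at 55813 against 4477 and 4314, and with *Grm6*, an ON bipolar marker, at 593 against 145 and 64.9. *Vsx1*, listed as an OFF marker, was higher in ON-BC, with means of 975 and 287. The 9 amacrine markers summed to 568 to 628 in pan-BC, 343 to 492 in ON-BC and 924 to 1117 in OFF-BC, but to 2115 to 2448 in rods and 1371 to 1600 in blue cones, where *Slc6a9* alone had 2047 to 2427 and 1337 to 1594. *Chat* was at 0 in every OFF-BC library. The part of these cells in the results was not tested, and in bulk samples fewer cells of a type and less RNA per cell cannot be told apart.

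The sequences of 5 regions at the members are shown here, and the counts of these regions are given further on. They were read from the reference genome (GRCm38.p6, RefSeq, plus strand) over the 200 bp regions of the deposited table, and none overlaps an annotated exon. Capitals mark matches on either strand to CANNTG, the E-box bound by basic helix-loop-helix factors, and to TAATCC, the motif of OTX2 and CRX, which reads GGATTA from the other strand. The first 3 regions were open in ON-BC and nearly closed in OFF-BC, the fourth is the *Gabrg1* promoter, and the fifth was the most open *Gabrb1* region in pan-BC.
*Gabra4* intron, chr5:71627347-71627546: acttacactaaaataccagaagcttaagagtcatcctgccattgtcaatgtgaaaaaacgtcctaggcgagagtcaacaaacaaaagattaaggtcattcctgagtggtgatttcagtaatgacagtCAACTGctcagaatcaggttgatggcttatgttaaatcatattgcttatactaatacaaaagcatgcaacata
*Gabrg3* intron, chr7:57363914-57364113: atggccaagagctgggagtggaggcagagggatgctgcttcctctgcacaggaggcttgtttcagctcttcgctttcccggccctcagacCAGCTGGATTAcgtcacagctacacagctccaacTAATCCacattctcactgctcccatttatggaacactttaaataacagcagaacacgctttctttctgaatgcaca
*Gabrg3* intron, chr7:57325130-57325329: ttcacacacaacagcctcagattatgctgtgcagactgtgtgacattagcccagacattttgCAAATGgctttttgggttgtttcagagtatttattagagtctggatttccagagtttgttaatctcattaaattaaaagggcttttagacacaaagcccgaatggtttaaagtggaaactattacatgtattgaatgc
*Gabrg1* promoter, chr5:70843188-70843387: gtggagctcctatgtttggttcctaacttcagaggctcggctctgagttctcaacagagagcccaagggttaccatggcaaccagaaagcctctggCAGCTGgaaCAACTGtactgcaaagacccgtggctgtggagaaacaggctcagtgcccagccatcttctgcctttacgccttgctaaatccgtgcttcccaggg
*Gabrb1* intron, chr5:71732273-71732472: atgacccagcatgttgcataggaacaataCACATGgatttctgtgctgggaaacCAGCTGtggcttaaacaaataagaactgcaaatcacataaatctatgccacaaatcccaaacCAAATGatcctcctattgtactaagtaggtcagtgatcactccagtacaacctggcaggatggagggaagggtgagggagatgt

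In the genome the members lie in the subunit clusters of the family. *Gabrg1*, *Gabra2*, *Gabra4* and *Gabrb1* form 1 cluster of 4 genes on chromosome 5 between 70751047 and 72149572, with no other subunit gene among them. *Gabra4* and *Gabrb1* lie head to head there, and their annotated transcripts overlap by 388 bp, where reads of both genes cannot be told apart because the counting was not stated to use strand. *Gabrb2* lies on chromosome 11, 98.4 kb from *Gabra6*. *Gabrg3* lies on chromosome 7, 20.5 kb from *Gabra5*, and *Gabra3* on chromosome X between *Gabre* and *Gabrq*.

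*Gabrb2*, the beta subunit of many synaptic receptors in the brain, was the most abundant member in each of the 5 populations, also per kilobase of exon. Its normalised counts were 3570, 4035 and 4388 in pan-BC, 2336, 2604 and 2146 in ON-BC, and 7208, 9708 and 6395 in OFF-BC. Every bipolar library lay far above the photoreceptor libraries. Rods had 5.82, 14.3 and 28.1, and blue cones 26.3, 36.4 and 119. The level fell in the order OFF-BC, pan-BC, ON-BC, blue cones and rods, and only the ranges of the last pair overlapped. The log2 difference between pan-BC and rods was 8.10 (SE 0.46, limma adjusted p = 3.33e-10), and between pan-BC and blue cones 6.32 (SE 0.46, limma adjusted p = 2.69e-08).

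*Gabrb1*, another beta subunit, had the same order among the bipolar populations, at lower levels. Its normalised counts were 251, 257 and 292 in pan-BC, 101, 111 and 84.1 in ON-BC, and 658, 769 and 704 in OFF-BC. These 3 populations did not overlap. In rods it was counted at 3.88, 0 and 5.40, and in blue cones at 1.50, 5.31 and 0, so that rods and blue cones overlapped. Pan-BC exceeded rods by 6.41 (log2, SE 0.61, limma adjusted p = 3.94e-07) and blue cones by 6.73 (log2, SE 0.61, limma adjusted p = 3.30e-07).

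*Gabra3* was the most abundant alpha subunit among the members in each bipolar population. Its normalised counts were 68.1, 50.4 and 53.8 in pan-BC, 47.5, 44.1 and 36.9 in ON-BC, and 13.4, 25.2 and 17.7 in OFF-BC. Rods had 0 reads in all 3 libraries. Blue cones had 5.26, 0 and 57.7, so that blue cone library 3 reached the pan-BC range while library 2 had no read. Against rods the difference was 5.86 (log2, SE 0.91, limma adjusted p = 0.000116). A fold against 0 depends on the count added before the logarithm, and against a floor of 3 reads per library *Gabra3* was at least 18.7-fold higher in pan-BC than in rods. Against blue cones the difference was 3.02 (95% confidence interval 1.09 to 4.94, limma adjusted p = 0.0567) and was not called. This rested on a few libraries, since without blue cone library 3 it was 4.53 (limma adjusted p = 7.00e-05), and without library 2 it was 1.60 (limma adjusted p = 0.424).

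Blue cone library 3 also had the most *Gabrb2* of the blue cone libraries. *Gabrb2* stood at 0.659%, 0.911% and 2.98% of its pan-BC mean in the 3 blue cone libraries, and *Gabra3* at 9.16%, 0% and 100.5%. *Gabra3* in library 3, with 78 reads, was thus far above the share that *Gabrb2* had there. Whether RNA of other cells had a part in it was not tested. Rod library 3 likewise had the highest *Gabrb2* (0.703%) of the rod libraries.

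*Gabra2*, an alpha subunit, was low everywhere and no comparison called it. Its normalised counts were 16.0, 13.1 and 6.12 in pan-BC, 3.10, 14.7 and 0 in ON-BC, and 3.35, 2.40 and 3.31 in OFF-BC. Rods had 1.94, 4.10 and 3.24, and blue cones 3.01, 5.31 and 0. All neighbours in the order of its means overlapped. The difference between pan-BC and rods was 1.58 (log2, 95% confidence interval -0.16 to 3.32, limma adjusted p = 0.470) and between pan-BC and blue cones 2.02 (0.28 to 3.77, limma adjusted p = 0.268). *Gabra4*, an alpha subunit found outside synapses in other brain regions, did not pass the filter. It had 5.32, 6.05 and 4.89 in pan-BC, 5.16, 1.96 and 0 in ON-BC, and 10.1, 13.2 and 3.31 in OFF-BC. It was at 0 in all 3 rod libraries and at 0, 0 and 4.44 in blue cones. Against the floor of 3 reads, *Gabra4* was at least 1.76-fold higher in pan-BC than in rods.

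Both gamma subunits among the members were scarce. *Gabrg1* had 9.57, 14.1 and 14.7 in pan-BC, 27.9, 24.5 and 13.3 in ON-BC, and 30.2, 26.4 and 19.9 in OFF-BC. No read was counted in any of the 6 photoreceptor libraries. The fitted difference was 3.76 against rods (log2, SE 0.41, limma adjusted p = 1.06e-05) and 3.76 against blue cones (log2, SE 0.41, limma adjusted p = 1.55e-05), and against the floor of 3 reads *Gabrg1* was at least 4.16-fold and at least 5.68-fold higher. Both calls were lost when 8 rather than 1 was added before the logarithm, where the adjusted p was 0.145 and 0.170.

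*Gabrg3* was the least abundant member per kilobase of exon in pan-BC and in ON-BC. It had 4.25, 5.04 and 8.56 in pan-BC, 2.06, 6.86 and 1.03 in ON-BC, and 12.3, 15.6 and 11.03 in OFF-BC. Rods had 0 reads in all 3 libraries, and blue cones 0, 4.55 and 4.44. The OFF-BC libraries lay above all others, and only through them did the gene pass the filter on low counts. Against rods the difference was 2.75 (log2, SE 0.65, limma adjusted p = 0.0193), at least 1.94-fold against the floor of 3 reads. The call was lost without pan-BC library 3 (2.49, adjusted p = 0.0687) and when 8 was added before the logarithm (0.79, adjusted p = 1.0). Against blue cones the difference was 1.11 (95% confidence interval -0.26 to 2.48, limma adjusted p = 0.848).

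Thus 5 of the 7 members were called higher in pan-BC than in rods, namely *Gabra3*, *Gabrb1*, *Gabrb2*, *Gabrg1* and *Gabrg3*, where 27.8% of all 14024 genes tested were called in that direction. The *Gabrg3* call is the weakest of these. That gene entered the test only through its OFF-BC libraries, and its bound of 1.94-fold lies below the log2 difference of 1 tested against. The median log2 difference of all 7 members, *Gabra4* included, was 3.76, or 2.06 with the genes at 0 in rods set to their bound, and the median of all genes tested was 0.21. Against blue cones 3 members were called higher in pan-BC (*Gabrb1*, *Gabrb2* and *Gabrg1*), where 22.7% of all genes were, with a median of 3.02 for all 7 members (2.51 with bounds) and of 0.16 for all genes. A gene was called where limma's adjusted p, tested against a log2 difference of 1, was below 0.05.

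**Figure D1:**
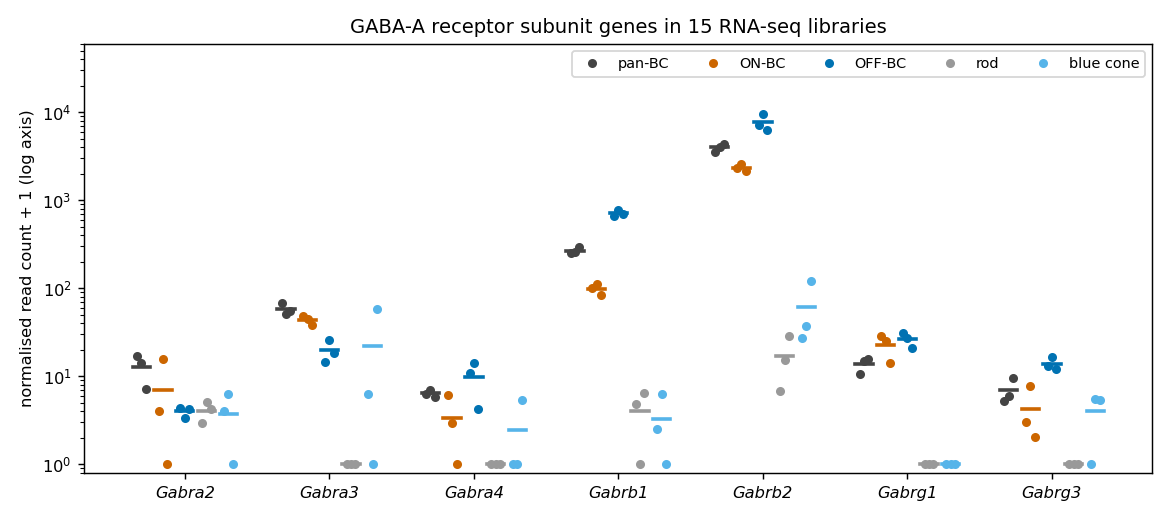
Normalised read count plus 1 (log axis) of the 7 members in the 15 RNA-seq libraries, with 1 point per library and a bar at the mean of the 3 libraries of a population. *Gabrb2* is the highest member in every population, with OFF-BC at 6395 to 9708 and ON-BC at 2146 to 2604, while *Gabrg1* is at 0 in all 6 photoreceptor libraries.

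No member was called by limma between rods and blue cones, 1 had an unadjusted p below 0.05, edgeR called 1 (*Gabra3*) and DESeq2 called 0, giving no p for *Gabra3*. Of all genes, limma called 4.63% higher in rods and 11.3% higher in blue cones. *Gabrb2* had means of 16.1 in rods and 60.6 in blue cones, a log2 difference of -1.78 (95% confidence interval -2.76 to -0.80, limma adjusted p = 0.268), and leaving out 1 library at a time gave -2.28 (adjusted p = 0.0386) without rod library 3 to -1.14 (adjusted p = 1.0) without blue cone library 3. *Gabra3* had -2.84 (-4.77 to -0.91, limma adjusted p = 0.160), and had -4.26 (adjusted p = 0.00101) without blue cone library 2 and -1.32 (adjusted p = 1.0) without blue cone library 3.

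ON-BC and OFF-BC were compared next. OFF-BC libraries lay above all ON-BC libraries in *Gabrb1*, *Gabrb2* and *Gabrg3*, and ON-BC libraries lay above all OFF-BC libraries in *Gabra3*. Such gaps were common, since 22.6% of all genes tested had every OFF-BC library above every ON-BC library and 19.6% the reverse. *Gabrg3* passed the filter on low counts only through its OFF-BC libraries, so its gap is not independent of that filter. By limma against a log2 difference of 1 no member was called. Here 1 member (*Gabrb1*) had an unadjusted p below 0.05, edgeR called 2 (*Gabrb1* and *Gabrb2*) and DESeq2 called 1 (*Gabrb1*), and among all genes 2.95% were called higher in ON-BC and 3.6% higher in OFF-BC.

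*Gabrb1* had the widest gap. Its mean was 98.7 ± 13.5 (SD, n = 3) in ON-BC and 710.4 ± 55.6 (SD, n = 3) in OFF-BC. The fitted log2 difference was -2.84 (SE 0.61, 95% confidence interval -4.14 to -1.55) and limma's adjusted p was 0.0596, just outside the threshold. This SE is 1 estimate shared by all 5 populations, the same as against rods and blue cones. It is not the spread of ON-BC and OFF-BC alone, and photoreceptor libraries with few or no *Gabrb1* reads enter it. Under the alternatives its adjusted p ran from 3.22e-20 to 0.222, with 6.45e-06 by edgeR and 5.06e-06 when limma was fitted on ON-BC and OFF-BC alone. *Gabrb2* had means of 2362 ± 230 in ON-BC and 7770 ± 1727 in OFF-BC (SD, n = 3), a log2 difference of -1.70 (95% confidence interval -2.68 to -0.72, limma adjusted p = 0.698). edgeR called it with an adjusted p of 0.0493, and limma on the 2 populations alone with 0.00603.

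For both beta subunits pan-BC lay between the types. The pan-BC mean of *Gabrb1* was 27.5% of the way from the ON-BC to the OFF-BC mean, and that of *Gabrb2* was 30.2% of the way. *Gabrg3* had a log2 difference of -1.92 (95% confidence interval -3.30 to -0.55, limma adjusted p = 0.792) at counts of at most 15.6. *Gabra3* had 1.19 (-0.74 to 3.11, limma adjusted p = 1.0), the only tested member with a higher mean in ON-BC whose libraries did not overlap. *Gabrg1* had -0.25 (-1.13 to 0.62) and *Gabra2* 0.00 (-1.74 to 1.74), and in both the libraries of the types overlapped.

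**Figure D2:**
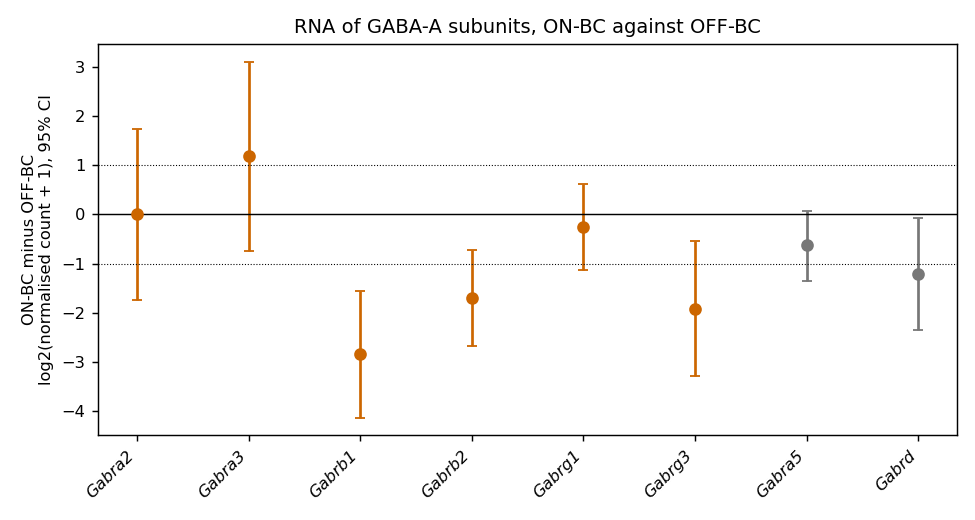
Fitted log2 difference of normalised count plus 1, ON-BC minus OFF-BC, for the 6 members tested (orange) and for *Gabra5* and *Gabrd* (grey), with 95% confidence intervals from limma over 3 libraries per population. The dotted lines mark the difference of 1 that was tested against, and only the interval of *Gabrb1* (-4.14 to -1.55) lies wholly past a line.

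Other subunits of the family were set beside the members. *Gabra5*, an alpha subunit found mostly outside synapses, had means of 591 in pan-BC and 88.2 in blue cones, and was called higher in pan-BC (2.73, log2, limma adjusted p = 0.000230). *Gabrd*, the delta subunit of receptors outside synapses, had 581 and 262, a log2 difference of 1.15 (95% confidence interval 0.01 to 2.28, limma adjusted p = 0.782) that was not called. Both were called higher in pan-BC against rods, by 8.65 for *Gabra5* and 7.68 for *Gabrd* on the log2 scale. Both were also called higher in blue cones than in rods, where 11.3% of all genes were, and where no member was called. In ON-BC against OFF-BC *Gabra5* had means of 413 and 641 (-0.63, 95% confidence interval -1.35 to 0.08) and *Gabrd* of 321 and 747 (-1.21, -2.35 to -0.07), with no overlap of the libraries in either, and neither was called. *Gabre* and *Gabrp* had no read in any of the 15 libraries, *Gabra6* had 1 read and *Gabrq* 3 reads in all.

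Proteins that place GABA-A receptors at synapses were taken as a list of 16 scaffold and trafficking genes. Of these, 9 were called higher in pan-BC against rods, where 27.8% of all genes were, and 5 were called higher, where 22.7% were, and 1 lower than in blue cones. *Mdga1*, which binds neuroligin 2, had a mean of 1564 in pan-BC, against 2.84 in rods and 67.0 in blue cones. *Slitrk3*, an organizer of inhibitory synapses, had 2343, 17.2 and 22.5 in the same order, and *Iqsec3*, an exchange factor at inhibitory synapses, 2451, 40.5 and 163. The gene called lower in pan-BC than in blue cones, named after its values were seen, was *Gabarapl1* (-1.56, limma adjusted p = 0.00162), a relative of a GABA-A receptor-associated protein that also acts in autophagy, and 13.7% of all genes were called in that direction. Between rods and blue cones 1 gene was called higher in rods and 7 were called higher in blue cones, where 11.3% of all genes were. The former, also named after its values were seen, was *Nlgn2* (means 418 and 170, limma adjusted p = 0.0443), the neuroligin of inhibitory synapses, and 4.63% of all genes were called higher in rods. In ON-BC against OFF-BC limma called 0 of the 16, with 2 at an unadjusted p below 0.05, 2 by edgeR and 1 by DESeq2. Of all genes, 2.95% were called higher in ON-BC and 3.6% higher in OFF-BC by limma, so few calls would be looked for in a list of 16.

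Of 9 genes for GABA synthesis, breakdown and transport, 8 were tested. All 8 were called higher in pan-BC against rods, where 27.8% of all genes were. Against blue cones 6 were called higher in pan-BC, where 22.7% of all genes were. *Slc6a11*, the GABA transporter GAT3, had a mean of 1445 in pan-BC, against 20.3 in rods and 26.6 in blue cones. *Slc6a13*, the transporter GAT2, had 72.9, 2.77 and 1.77. *Gad1* and *Gad2*, the enzymes that make GABA and markers of amacrine cells, had 60.6 and 20.7 in pan-BC, 1.40 and 2.41 in rods, and 1.98 and 0 in blue cones. In ON-BC and OFF-BC *Gad1* overlapped, at 22.7, 65.6 and 24.6 against 29.1, 26.4 and 27.6, and was 1 of 5 among the 9 amacrine markers whose libraries overlapped. OFF-BC libraries lay above all ON-BC libraries in 3 of the 9, *Tfap2b* (means 54.5 and 212), *Slc6a9* and 1 more, as in 22.6% of all genes tested. OFF-BC libraries lay below all ON-BC libraries in 1, *C1ql1* (means 11.2 and 4.18), as in 19.6% of all genes tested. These genes were named after their values were seen. The part of amacrine RNA in this was not tested. Called higher in OFF-BC were 2 genes, where 3.6% of all genes were. Named after their values were seen, they were *Abat* (GABA transaminase, means 83.5 and 584, log2 difference -2.79, limma adjusted p = 0.00111) and *Slc6a12* (the transporter BGT1, means 1.36 and 15.7, log2 difference -2.81, limma adjusted p = 0.0114).

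All 6 genes of the GABA-B receptor, the metabotropic receptor for the same transmitter, were called higher in pan-BC against rods, where 27.8% of all genes were. Against blue cones 3 were called higher in pan-BC, where 22.7% of all genes were. *Gabbr2*, a receptor subunit, had a mean of 139.7 in pan-BC, against 0.360 in rods and 4.48 in blue cones. The auxiliary subunits *Kctd8* had 69.4, 2.77 and 14.2, *Kctd16* 23.5, 0.323 and 1.51, and *Kctd12b* 11.9, 0.360 and 9.05. *Kctd16* was the only gene of the 6 called between ON-BC and OFF-BC, with means of 6.40 and 87.3 and a log2 difference of -3.54 (limma adjusted p = 0.00189). Among all genes 2.95% were called higher in ON-BC and 3.6% higher in OFF-BC.

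Chromatin was then examined at the members, as a measure that the rule does not use, though the members were chosen with earlier results of these data known. The table held 49 regions of 200 bp within a member gene, its promoter or 5 kb on either side, of 110715 in all, and 1 of them lies at the shared start of *Gabra4* and *Gabrb1*. Regions were assigned by position, which does not say which gene they act on. All 49 were more open in pan-BC than in rods in every library, and the share of all regions with such a gap was not counted. Of the 49, 47 were called, where 40.3% of all 108448 regions tested were called in that direction. The median log2 difference was 4.79 at the members and 1.16 over all regions. Against blue cones 39 were called higher in pan-BC, where 28.8% of all regions were, with medians of 3.97 and 0.54. Between rods and blue cones 3 of the 49 were called, all higher in blue cones, where 8.56% of all regions were. The start region of *Gabrg3*, chr7:57386581-57386780, was among these 3, and overlaps an annotated coding exon of the gene in part. Rods had no read there, blue cones had 19.4 and 10.8, and pan-BC had 56.0 and 133.

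The start of *Gabrg1* held the most open regions named here. At chr5:70843188-70843387, printed above and -670 bp from the annotated start, pan-BC had 158 and 217 normalised counts, ON-BC 191 and 234, and OFF-BC 162 and 126. Rods had 0 and 0, and blue cones 0 and 1.45. The difference was 7.54 against rods (log2, SE 0.51, limma adjusted p = 1.16e-08) and 6.90 against blue cones (log2, SE 0.51, limma adjusted p = 4.12e-07). A neighbouring region that holds part of the gene's annotated transcript, chr5:70842292-70842491, was more open still, with 209 and 277 in pan-BC, which placed it at the 95.3rd percentile of all regions in that population, while *Gabrg1* RNA stood at the 46.8th percentile of all genes. *Gabrb2* was the reverse, with RNA at the 97.1st percentile and its most open start region at the 71.4th percentile of regions in pan-BC.

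At *Gabrb2* an intron region, chr11:42535281-42535480, had 84.0 and 123 in pan-BC, 1.56 and 0 in rods, and 0 and 0 in blue cones, a log2 difference of 6.68 (SE 0.69, limma adjusted p = 6.00e-06) against blue cones. At *Gabrb1* the intron region printed above had 132 and 173 in pan-BC. ON-BC had 193 and 211 there and OFF-BC 75.4 and 50.6, while rods had 3.12 and 0 and blue cones 2.59 and 0. It differed from rods by 6.23 (log2, SE 0.75, limma adjusted p = 7.74e-06). The shared start of *Gabra4* and *Gabrb1*, chr5:71657884-71658083, had 54.4 and 91.8 in pan-BC, 0 and 6.78 in rods, and 2.59 and 1.45 in blue cones.

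The other regions named by rule were likewise open in pan-BC and had few or no reads in rods and blue cones. The *Gabrb1* intron region chr5:71701069-71701268, which lies within an annotated exon of *Gm38562*, had 80.8 and 116 in pan-BC. It had 0 and 1.36 in rods, and 5.18 and 7.23 in blue cones. The *Gabrb2* intron region chr11:42423358-42423557 had 44.0 and 87.2, 0 and 0, and 0 and 2.89 in the same order. Its promoter regions, chr11:42419911-42420110 and chr11:42421194-42421393, had 36.8 and 75.3 and 36.0 and 60.4 in pan-BC and no read in rods. The *Gabra2* intron region chr5:71058079-71058278 had 34.4 and 66.7 in pan-BC, and the *Gabra3* intron region chrX:72598765-72598964 had 35.2 and 32.5, and both had no read in rods and at most 3.89 in a blue cone library.

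Green cones, the third photoreceptor population of the region table, did not always lie below pan-BC. Their mean was above that of pan-BC in 5 of the 49 regions, 4 of them at *Gabrg3* and 1 at *Gabrb1*, while that of rods or blue cones was so in 0. In 2 of the 5, named after their values were seen, both green cone libraries lay above both pan-BC libraries. The *Gabrg3* intron region chr7:57132435-57132634 had 106 and 130 in green cones and 41.6 and 42.8 in pan-BC, with 98.3 and 63.3 in OFF-BC and 34.3 and 38.1 in ON-BC. The region chr7:57389124-57389323, upstream of *Gabrg3*, had 27.7 and 18.3 in green cones and 6.40 and 5.70 in pan-BC. No difference of green cones was tested, and the share of all regions with green cones above pan-BC was not counted.

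The start of *Gabra2* had counts in photoreceptors as well. Its region chr5:71096028-71096227 had 35.2 and 67.8 in pan-BC. Rods had 7.01 and 9.49, blue cones 20.7 and 14.5, and green cones 36.1 and 31.0. The difference from rods was 2.45 (log2, SE 0.43, limma adjusted p = 0.00461) and from blue cones 1.45 (95% confidence interval 0.54 to 2.35, limma adjusted p = 0.317). The authors' peak lists, called in each library on its own, had a peak at the start of *Gabra2* in 1 of 2 rod libraries and in both blue cone libraries, and at the start of no other member in rods or blue cones. *Gabra3* had such a peak in both ON-BC and both pan-BC libraries, with a fold enrichment of 5.24 to 6.87, and in neither OFF-BC library. Its start region, chrX:72656326-72656525, had 35.8 and 29.3 in ON-BC and 10.8 and 21.4 in OFF-BC, a log2 difference of 1.04 (95% confidence interval -0.48 to 2.56) that was not called.

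**Figure D3:**
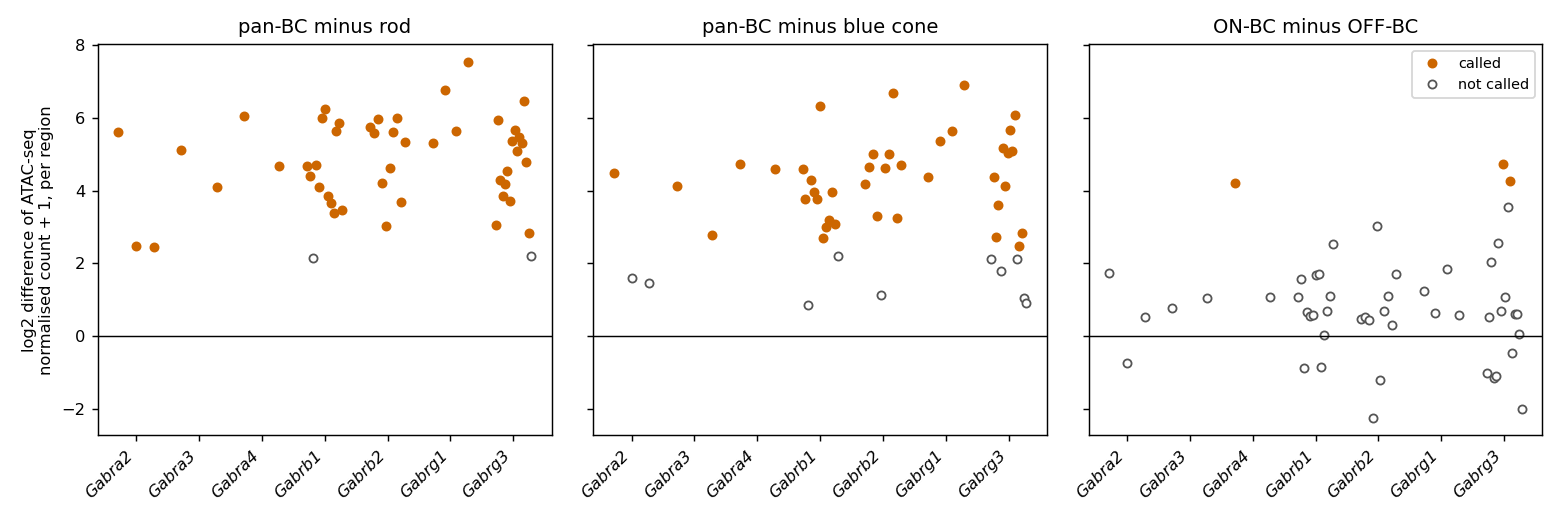
Log2 difference of ATAC-seq normalised count plus 1 for each region at the members, with 1 point per region and filled points called by limma. All points lie above 0 against rods and against blue cones, and in ON-BC minus OFF-BC 3 are called, all higher in ON-BC.

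Between ON-BC and OFF-BC 3 of the 49 regions were called, all higher in ON-BC, where 4.58% of all regions were, and 0 were called higher in OFF-BC, where 2.8% were. For the direction with none, the count at an unadjusted p below 0.05 was 0 and edgeR called 0. The *Gabra4* intron region printed first lies 30862 bp inside the gene and had 71.7 and 99.6 in ON-BC against 2.69 and 4.87 in OFF-BC. Pan-BC had 62.4 and 68.4 there, rods had no read, and blue cones had 2.59 and 0.723. Its log2 difference was 4.20 (SE 0.74, limma adjusted p = 0.00702), while *Gabra4* RNA had means of 2.37 in ON-BC and 8.86 in OFF-BC. The *Gabrg3* intron region at chr7:57363914-57364113, 23168 bp inside the gene, had 108 and 105 in ON-BC and 5.39 and 3.89 in OFF-BC (4.26, SE 0.69, limma adjusted p = 0.00390). The third region, chr7:57325130-57325329 in the same gene, which fell outside the naming rule and was named after its values were seen, had 119 and 111 in ON-BC and 5.39 and 1.95 in OFF-BC (4.74, SE 0.76, limma adjusted p = 0.00305).

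At *Gabrb1* and *Gabrb2*, whose RNA was lower in every ON-BC than in every OFF-BC library, no region was called and most regions had the higher mean in ON-BC. ON-BC was the higher population in 11 of 13 *Gabrb1* regions, with a median log2 difference of 0.69, where the RNA had -2.84. It was the higher in 8 of 10 *Gabrb2* regions, with a median of 0.49, where the RNA had -1.70. These medians depend on the scaling, since that of all regions was 0.15 with the authors' size factors and -0.07 with TMM scaling, and with TMM the medians were 0.47 and 0.27 and the counts 10 of 13 and 8 of 10. All regions called were 4972 higher in ON-BC and 3038 higher in OFF-BC, and 3602 and 3477 with TMM. Over all 49 regions, 33 had both ON-BC libraries above both OFF-BC libraries, where 36.7% of all regions did, and 8 the reverse, where 23.4% did. The *Gabrb2* region with the largest OFF-BC excess, chr11:42468466-42468665, named after its values were seen, had 57.9 and 28.2 in OFF-BC and 4.48 and 13.2 in ON-BC (-2.24, limma adjusted p = 0.459).

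**Figure D4:**
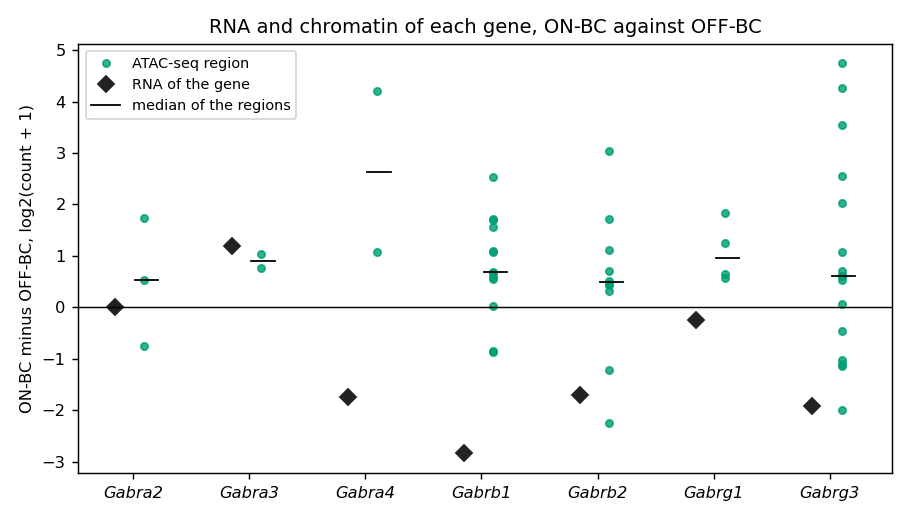
Log2 difference of normalised count plus 1, ON-BC minus OFF-BC, of the RNA of each member (diamonds, means of 3 libraries) and of each ATAC-seq region at it (points, means of 2 libraries, with a bar at their median). The RNA of *Gabrb1* lies at -2.84 while 11 of its 13 regions lie above 0, and *Gabra4* RNA was not tested.

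The letters of the regions were also counted. TAATCC was found on either strand in 10 of the 49 regions (20.4%) and in 21.8% of all 110715 regions of the same length. TAATTA, a core of other homeodomain motifs, was found in 1 (2.04%) and in 5.2% of all, TAATTG in 0 and in 6.88% of all, and CANNTG in 36 (73.5%) and in 68.7% of all. None of these shares is offered as a difference. In the *Gabrg3* region at chr7:57363914-57364113 TAATCC occurs in 2 places and CANNTG in 1, and a CANNTG match there overlaps a GGATTA match, while the *Gabra4* region and the other *Gabrg3* region hold 1 CANNTG each.

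The members were also compared with each other and with all other genes by the correlation of log2 counts over the 15 libraries, which share populations, so that a high value reflects mainly the gap between bipolar cells and photoreceptors. *Gabrb2* and *Gabrg1* had the highest correlation among the members (r = 0.957), followed by *Gabrb1* and *Gabrg1* (0.936) and by *Gabrb1* and *Gabrb2* (0.931). *Gabra2* had the lowest, 0.097 to 0.358 with the other 6. Outside the GABA lists the nearest genes were *Cd200* (r = 0.994) and *Gm4980* (0.992) for *Gabrb2*, *Cyp7b1* (0.982) and *Mrap2* (0.979) for *Gabrb1*, and *Gm14379* and *9030624G23Rik* (both 0.989) for *Gabrg1*. They were *Trim43b* (0.945) and *Nol3* (0.939) for *Gabra3*, *Irf1* (0.93) and *Gng7* (0.929) for *Gabrg3*, *Mrpl35* (0.903) and *Tmem255a* (0.897) for *Gabra4*, and *Cpne5* (0.773) and *Lmbrd2* (0.751) for *Gabra2*.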

How the data were processed

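Adult mouse retinal neurons were sorted, and RNA-seq (15 libraries, 5 populations) and ATAC-seq (12 libraries in the region table, 6 populations) were analysed from the deposited tables. The authors aligned RNA reads to GRCm38 with STAR 2.7.0d and counted them per RefSeq gene with HTSeq. For ATAC-seq they used Bowtie2 for alignment (2.2.5 in the submitters' processing notes), SAMtools (1.3 in those notes) and Picard 2.19.0 for filtering and duplicates, where the study's methods name other versions of Bowtie2 and SAMtools, and MACS2 2.1.1 for peaks of each library from short fragments. Reads were then counted in 200 bp regions. The signal in both tables is the read count that the authors divided by a size factor per library (0.8173 to 1.3511 for RNA-seq, 0.6698 to 1.7539 for ATAC-seq), and the peak lists of the authors give the fold enrichment ratio of each summit. Bipolar RNA was amplified as cDNA with a kit not described as marking strand.

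Whole reads were recovered from both tables: within 0.01 read, 100.0% of the 230384 gene values above 0 and of the 1212862 region values above 0 were multiples of what 1 read is worth in their library. The main test was limma 3.58.1 in R 4.3.3, on log2(normalised count + 1), against a log2 difference of 1 (treat), over all libraries of an assay with populations as groups. P-values were adjusted by Benjamini-Hochberg over 14024 genes or 108448 regions kept by a filter on low counts, and a feature was called at an adjusted p below 0.05. edgeR 4.0.16 and, for RNA, DESeq2 1.42.0 were alternatives on recovered reads, since the tables hold normalised counts. Fold changes are on the log2(normalised count + 1) scale, which understates changes of low genes. The script was tested on simulated data. Replicate libraries correlated at 0.972 to 0.985 for RNA and 0.866 to 0.959 for ATAC. The study calls its libraries biological replicates, and the sources used here do not say how animals were shared among them, so p-values measure the spread between these samples. In the main test this spread is 1 estimate per gene or region, shared by all populations of the assay, and not that of the compared populations alone. Floors of 3 reads cover counting error only.

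Named were all members, the other subunits, up to 4 called genes per further list by the largest difference, the 2 genes most correlated with each member, and per member up to 2 called regions and the promoter. The members and lists were chosen with earlier results of these data known. Annotation, exon lengths and sequence came from RefSeq GRCm38.p6. Alternatives were another pseudocount (0.5 or 8), TMM scaling, no filter, no fold threshold, fewer populations, a narrower window, a replicate block and leaving out each library. The peaks of 2 double-sorted green cone libraries entered no comparison. Some genes that the rule names, and the results that need them, are not reported here.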

Additional observations from a re-analysis of the deposited data

Results flagged for a closer look

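The peak lists of the 2 double-sorted green cone libraries, which entered no comparison above, held peaks at the starts of members. *Gabra2* had a start-site peak with a fold enrichment of 9.68 in double-sorted green cone library 3 and of 7.84 in library 4. *Gabrb1* had a start-site peak of 4.91 in library 3 and none in library 4. The single-sorted green cone libraries had a *Gabra2* peak in 2 of 2 and a *Gabrb1* peak in 0 of 2. These values were noted because they lie in data that the comparisons did not use, and the green cones have no RNA-seq library here to set beside them.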

How the results depend on the processing

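Of the 100 recomputed counts of called members or regions, 86 stayed within 1.5 times the reported count and 14 did not. No called RNA difference of a member changed sign, and this was not checked for each region. For RNA, the 5 members called between pan-BC and rods became 3 with a pseudocount of 8 (4 to 5 when leaving out a library), and the 3 against blue cones became 5 when limma tested against no change. Between ON-BC and OFF-BC the 0 called members became 2 with edgeR, 1 with DESeq2, 3 against no change, 1 with a pseudocount of 8 and 2 with only these populations in the fit. Between rods and blue cones the 0 became 1 with edgeR and 3 against no change, and ran from 0 to 1 when leaving out a library (1 without blue cone library 2, and 1 without rod library 3). For ATAC-seq, the 3 regions called between ON-BC and OFF-BC ran from 2 to 5 when leaving out a library (5 without OFF-BC library 2), where the lone sample left is assumed to vary like the other groups, and the 3 between rods and blue cones became 6 with edgeR and 0 with a pseudocount of 8. The cause was not tested. DESeq2 gave no adjusted p for *Gabra3*. Few reads lie behind *Gabra2*, *Gabra4*, *Gabrg1* and *Gabrg3*, which limits what can be told of them.

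The labels give same-numbered ON-BC and OFF-BC libraries the same age, but their RNA deviations correlated at -0.076, 0.222 and -0.065, and not every library correlated best with its own number, so the numbers were not taken as pairs. With a replicate block 0 members were called between ON-BC and OFF-BC (*Gabrb1* -2.84, limma adjusted p = 0.0998), and 4 regions instead of 3. Against blue cones 38 regions of pan-BC were called instead of 39. The block changed no call of a member's RNA and left 410 and 497 genes called higher in ON-BC and OFF-BC against 414 and 505.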
